A study of Mus musculus with 22 samples.

Results

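Immediate early genes are genes that cells switch on within minutes of a stimulus, with no need for new protein. Here 10 of them were followed in ischemic mouse muscle: Fos, Fosb, Jun, Junb, Jund, Egr1, Atf3, Ier2, Btg2 and Gadd45b. Every array probe whose platform gene symbol is one of these names was taken, which gave 11 probes of 38563, with 2 probes for Gadd45b and 1 for each of the others. These are 10 of the 18524 genes named on the array. Muscle came from 22 mice, all male and non-diabetic C57BL/6N, 8 to 12 weeks old, and each array read the gastrocnemius of a hindlimb made ischemic by taking out its femoral artery. After 5 days of ischemia 11 mice were injected with 12 mg/kg of an LNA oligonucleotide against miR-210 (ANTI-210), and 11 with the same dose of a scrambled sequence (SCR), and muscles were collected on day 7. The series text names the reagents LNA-GAPmers and the study's methods name them LNA inhibitors of microRNA. No non-ischemic muscle was analysed here, so the values compare the treatments within ischemia and do not show the response to ischemia itself. Each array of the Illumina MouseWG-6 v2 BeadChip held the RNA of 1 whole muscle, so that fewer cells of a type and less RNA per cell cannot be told apart.

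Fos and Fosb proteins pair with Jun, Junb or Jund through a leucine zipper to form AP-1, a transcription factor that shares its name, but no subunit, with a clathrin adaptor complex. Egr1 is a zinc finger transcription factor and Atf3 a stress-induced relative of the AP-1 subunits. Ier2, Btg2, which restrains proliferation, and Gadd45b, a stress sensor that acts on MAP kinase signalling, are switched on alongside them. MAP kinases, the serum response factor SRF and the factor CREB relay the stimulus to the promoters. In skeletal muscle these genes respond to contraction, injury, reperfusion and handling of the tissue.

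The reference sequences behind the experiment and the promoters that the results turn on are shown first, from RefSeq (GRCm38.p6). The microRNA that ANTI-210 targets is shown with its seed, bases 2 to 8, in capitals.

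mmu-miR-210-3p, chr7:141221407-141221428, minus strand: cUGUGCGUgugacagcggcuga

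Promoters of Fos, Fosb and Atf3 are shown because their highest values came from mice with replicate numbers 1 to 3, that of Junb because it had the largest correlation with muscle fibre markers over mice, and that of Gadd45b because it alone passed the test between treatments. Each line holds the 130 bases just before the annotated start of the gene, 5′ to 3′ on the strand of the gene. Capitals mark TGACG, the core of the element that CREB and ATF factors bind, on either strand.

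Fos, chr12:85473760-85473889, plus strand: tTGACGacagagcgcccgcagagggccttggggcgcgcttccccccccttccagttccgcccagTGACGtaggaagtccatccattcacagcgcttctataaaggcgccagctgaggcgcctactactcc
Fosb, chr7:19310046-19310175, minus strand: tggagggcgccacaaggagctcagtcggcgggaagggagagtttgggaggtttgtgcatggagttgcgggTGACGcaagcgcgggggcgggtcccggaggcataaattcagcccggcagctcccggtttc
Junb, chr8:84978749-84978878, minus strand: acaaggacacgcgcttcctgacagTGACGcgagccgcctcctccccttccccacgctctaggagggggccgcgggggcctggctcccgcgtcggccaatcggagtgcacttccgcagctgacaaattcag
Atf3, chr1:191183334-191183463, minus strand: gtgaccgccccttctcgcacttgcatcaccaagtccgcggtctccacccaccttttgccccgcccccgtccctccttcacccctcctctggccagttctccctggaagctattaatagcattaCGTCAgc
Gadd45b, chr10:80929961-80930090, plus strand: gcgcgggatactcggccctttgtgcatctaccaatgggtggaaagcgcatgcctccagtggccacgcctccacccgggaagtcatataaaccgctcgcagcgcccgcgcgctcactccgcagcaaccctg

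Over the 250 bases before the start, TGACG on either strand was found in 5 of the 8 member promoters in the table used, those of Fos, Fosb, Junb, Atf3 and Btg2, and in 17.8% of 32851 promoters of all genes. In Fos it begins 129 and 66 bases before the start, in Fosb 60, in Junb 106 and in Atf3 7. The full palindrome TGACGTCA, which contains the core, was found only in Btg2 among the 8 (1.55% of all promoters). Neither TGACTCA, an AP-1 site (4.46% of all promoters), nor the CArG box bound by SRF (1.47% of all promoters) was found in any of the 8 windows on either strand. Egr1 and Ier2 had no promoter in this search. Bases farther than 250 from the start were not searched either, so a site there would be missed. TATAA was found in Fos and Gadd45b and in 22.8% of all promoters. A match is a string of letters and no evidence of binding.

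Gadd45b was lower in ANTI-210 than in SCR muscles and was the only member to pass the test, while the AP-1 subunits, Egr1 and Atf3 did not pass it. At an unadjusted p under 0.05 from limma, the threshold in the study's methods, 1 of the 11 probes passed, against 3.41% of all 38563 probes in either direction and 1.94% in the lower direction. After Benjamini-Hochberg adjustment over all probes 0 of the 11 passed (2 of 38563, 0.00519%), and the adjusted p of each was 1, so that the call for Gadd45b rests on the unadjusted test alone. The log2 difference, taken throughout as ANTI-210 minus SCR, was below 0 for 9 of the 11 probes, against 52.7% of all probes. Among the 8 probes with a mean of at least 6 (log2) it was below 0 for 6. Its median was -0.13 over the 11 probes and -0.0036 over all probes.

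**Figure D1:**
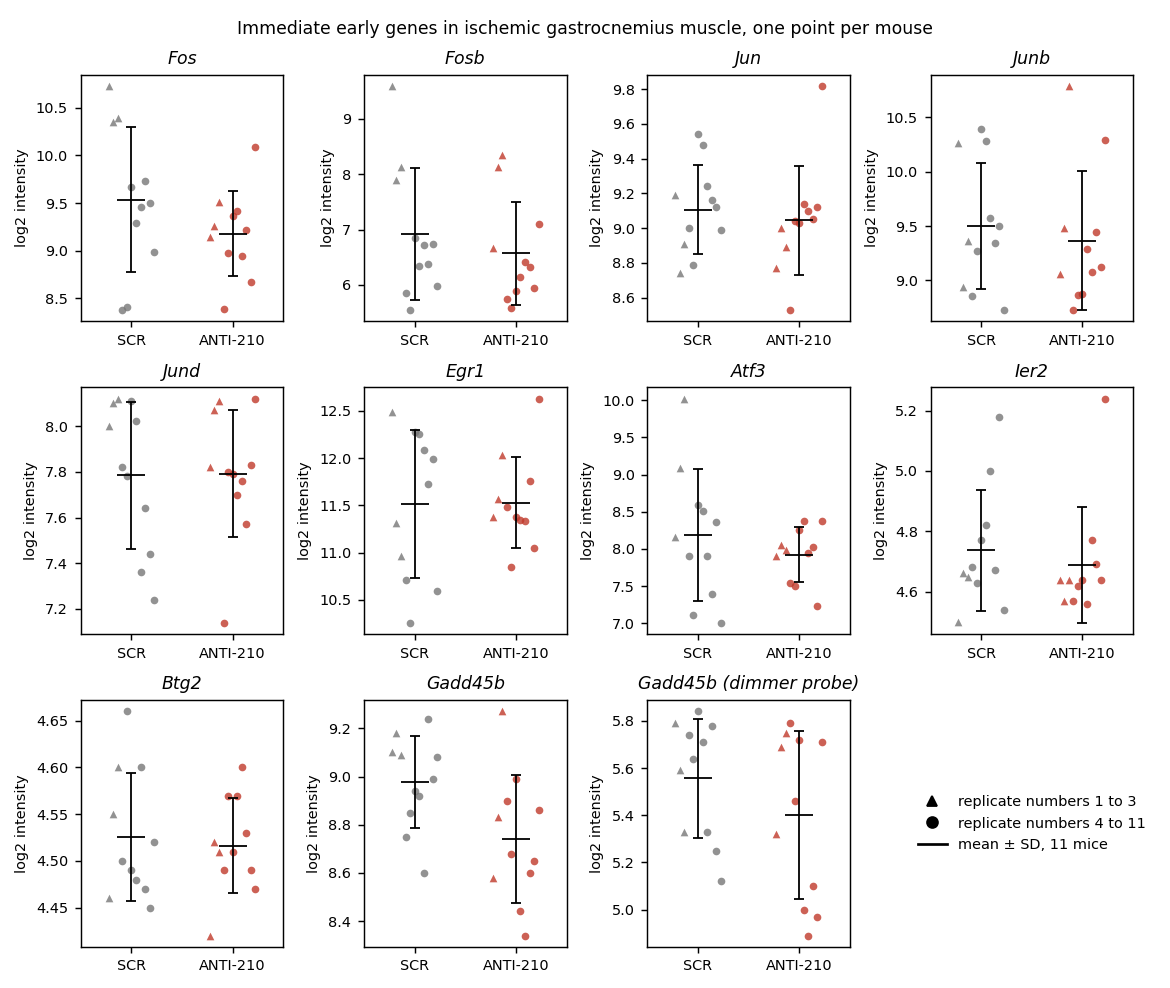
Log2 intensity of the 11 probes of immediate early genes in each mouse, SCR in grey and ANTI-210 in red, spread sideways by replicate number; triangles stand for replicate numbers 1 to 3, circles for numbers 4 to 11, and black bars for the mean ± SD of 11 mice. The 3 grey triangles of Fos, at 10.35 to 10.73, lie above every other mouse, and the ANTI-210 mean of Gadd45b lies 0.24 below that of SCR; the vertical axes differ and do not start at 0.

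In SCR muscles the brighter probe of Gadd45b ran from 8.60 to 9.24 with a median of 8.99, and in ANTI-210 muscles from 8.34 to 9.27 with a median of 8.68. The groups overlapped, and 9 of the 11 ANTI-210 mice lay below the SCR median, with ANTI-210 replicate 3 as the highest mouse of all. The means were 8.98 ± 0.19 (SD, n = 11) and 8.74 ± 0.26 (SD, n = 11), a difference of -0.24 (standard error 0.10, 95% interval -0.43 to -0.04, unadjusted p = 0.0218, adjusted p = 1 from limma). The dimmer probe of Gadd45b lay at 5.48 on average, near the floor of the array, and gave -0.16 (standard error 0.13, unadjusted p = 0.233 from limma). With the mean of both probes the difference was -0.20 and no longer passed (unadjusted p = 0.0619 from limma).

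Fos, the founding member of the family, had the largest difference of the 11 probes in size. Its log2 intensity ran from 8.38 to 10.73 with a median of 9.50 in SCR muscles and from 8.39 to 10.09 with a median of 9.22 in ANTI-210 muscles. The 3 highest mice were all SCR, and 9 of the 11 ANTI-210 mice lay below the SCR median. The difference was -0.36 (standard error 0.26, 95% interval -0.89 to 0.18, unadjusted p = 0.182 from limma). Fosb, the second FOS protein on the array, had the widest spread, from 5.55 to 9.60 (median 6.73) in SCR muscles and from 5.58 to 8.35 (median 6.32) in ANTI-210 muscles. This range over the 22 mice corresponds to 16.6-fold in intensity. The difference of Fosb was -0.34 (standard error 0.44, 95% interval -1.26 to 0.57, unadjusted p = 0.445 from limma), and the groups overlapped almost fully. Leaving out 1 mouse at a time gave -0.52 to -0.07, with -0.07 reached without SCR replicate 1.

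The JUN proteins, which can pair with FOS proteins or with each other, differed less. Jun ran from 8.74 to 9.54 (median 9.12) in SCR muscles and from 8.53 to 9.82 (median 9.04) in ANTI-210 muscles, with a difference of -0.06 (95% interval -0.31 to 0.18). Junb, which often restrains the activity of Jun, ran from 8.73 to 10.39 (median 9.36) and from 8.73 to 10.79 (median 9.12), with a difference of -0.13 (95% interval -0.65 to 0.39). Jund, the constitutive member of the family, ran from 7.24 to 8.12 (median 7.82) and from 7.14 to 8.12 (median 7.80), with a difference of 0.01 (95% interval -0.25 to 0.27). None of the 3 passed the test, with unadjusted p of 0.612, 0.602 and 0.954 from limma. In each the groups overlapped widely, and for Jun ANTI-210 ran past SCR at both ends.

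Egr1 gave the brightest probe of the 11 and showed no call between treatments. It ran from 10.26 to 12.49 (median 11.73) in SCR muscles and from 10.85 to 12.63 (median 11.38) in ANTI-210 muscles. The means were 11.52 ± 0.78 (SD, n = 11) and 11.53 ± 0.48 (SD, n = 11), with a difference of 0.01 (95% interval -0.54 to 0.57, unadjusted p = 0.965 from limma). The lowest and the highest mice of SCR lay farther apart than those of ANTI-210. Atf3 ran from 7.01 to 10.02 (median 8.16) in SCR muscles and from 7.23 to 8.38 (median 7.99) in ANTI-210 muscles, a difference of -0.26 (95% interval -0.84 to 0.32, unadjusted p = 0.360 from limma). Its 4 highest mice, above 8.50, were all SCR. With 1 mouse left out at a time it ran from -0.38 to -0.08, with -0.08 reached without SCR replicate 3.

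The probes of Ier2 and Btg2 lay near the floor, at a mean of 4.71 and 4.52 over all mice, where intensity hardly follows the amount of RNA. Ier2 ran from 4.50 to 5.24 over the 22 mice and Btg2 from 4.42 to 4.66. Their differences were -0.05 (standard error 0.08) and -0.01 (standard error 0.03), neither past the test. These probes are at best a weak measure of either gene, and the correlations given for them further on carry the same limit. With the dimmer probe of Gadd45b, 3 of the 11 probes averaged under 6 (log2), as did 62.6% of all probes.

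**Figure D2:**
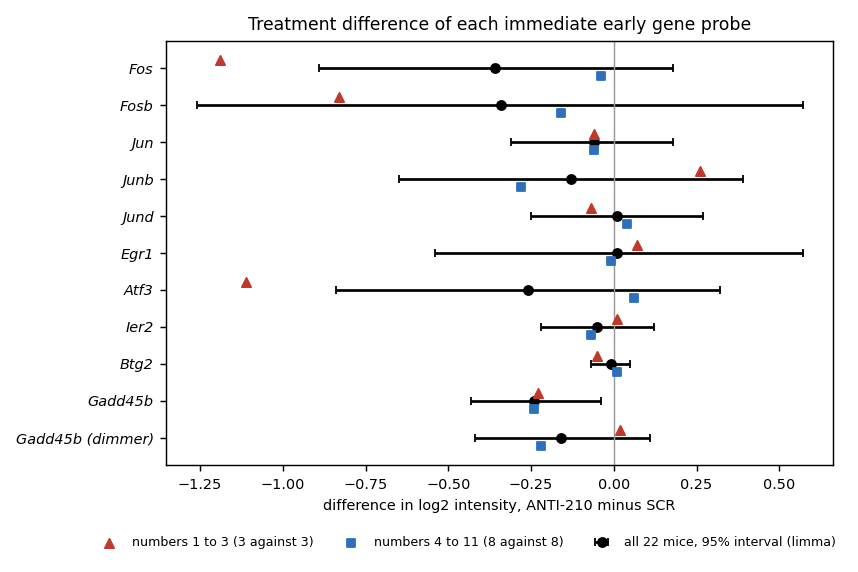
Difference in log2 intensity, ANTI-210 minus SCR, for the 11 probes; black points show all 22 mice and their bars the 95% interval from limma, red triangles the difference within replicate numbers 1 to 3 and blue squares that within numbers 4 to 11. The interval of Gadd45b, -0.43 to -0.04, is the only one that leaves out 0, and the triangles of Fos at -1.19 and of Atf3 at -1.11 lie farthest from 0.

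The spread between mice differed widely among the members. Within groups the SD was 1.07 for Fosb, larger than that of 98.8% of the probes with a mean of at least 6, whose median SD was 0.28. It was 0.68 for Atf3 (92.1%), 0.65 for Egr1 (90.9%), 0.63 for Fos (89.9%) and 0.61 for Junb (89.1%). Jun at 0.29, Jund at 0.30 and Gadd45b at 0.23 lay near that median. The 5 members with the larger spread had the wider intervals for the treatment difference, and Jun, Jund and Gadd45b the narrower ones.

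The highest values of Fos, Fosb and Atf3 came from mice with replicate numbers 1 to 3. Over all probes the second principal component separated numbers 1 to 3 of both groups (14.9 to 24.9) from numbers 4 to 11 (-21.95 to 6.10). No source used here calls these numbers a batch, and the sets were taken from earlier results of these data. Fos was at 10.73, 10.35 and 10.39 in SCR replicates 1, 2 and 3 and at 9.14, 9.26 and 9.51 in ANTI-210 replicates 1, 2 and 3. The 3 SCR values lay above those of every other mouse, and the ANTI-210 values lay among them. Fosb was at 9.60, 7.90 and 8.13 in the SCR mice of this set and at 6.67, 8.13 and 8.35 in the ANTI-210 mice, and in numbers 4 to 11 no mouse of either group was above 7.10. So 5 of the 6 mice of numbers 1 to 3 had more Fosb signal than any other mouse. Atf3 was at 8.16, 9.09 and 10.02 in the SCR mice of the set and at 7.90, 8.05 and 7.99 in the ANTI-210 mice. Over the 6 mice of the set Jun ran from 8.74 to 9.19, Junb from 8.94 to 10.79 and Egr1 from 10.97 to 12.49. These members were not uniformly high there. Jund ran from 7.82 to 8.12 in the set, with means of 8.07 in SCR and 8.00 in ANTI-210. In numbers 4 to 11 its means were lower, at 7.68 and 7.71, with a range of 7.14 to 8.12 over both groups.

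Within numbers 1 to 3 Fos differed by -1.19 between treatments and within numbers 4 to 11 by -0.04. For Atf3 these values were -1.11 and 0.06. Both gave an exact permutation p of 0.1, two-sided, which is the smallest that 3 mice against 3 allow. Among numbers 4 to 11, with n = 8 per group, it was 0.869 for Fos and 0.831 for Atf3 by the exact permutation test. Within numbers 1 to 3 the macrophage markers described further on had a median difference of 1.12 and the mature fibre markers of -0.07. The mean over the fibre markers was 14.15, 14.13 and 14.04 in SCR replicates 1, 2 and 3. In ANTI-210 replicates 1, 2 and 3 it was 13.96, 13.97 and 13.70. Of these markers the slow myosin Myh7 differed by -1.95 in this set. The part of the markers in the values of Fos and Atf3 was not tested. In 2 of the 11 probes every ANTI-210 mouse of numbers 1 to 3 lay below every SCR mouse of that set, which is close to the 16.9% of all probes that did so. The test of the difference between the sets, an interaction term in limma, gave -1.14 for Fos (standard error 0.44, unadjusted p = 0.0168, adjusted p = 0.442) and -1.17 for Atf3 (standard error 0.52, unadjusted p = 0.0372, adjusted p = 0.448). These 2 of 11 probes stand beside 11.0% of all probes with an unadjusted p under 0.05 in either direction and 5.66% in this direction, and none of the 38563 probes passed after adjustment. Leaving out 1 mouse at a time kept the call for Fos in all 22 fits. The call for Atf3 was lost in 11 of them, namely when the mouse was SCR replicate 2, 3, 5, 9 or 11, or replicate 1, 2, 3, 6, 7 or 11 of ANTI-210, with an interaction between -1.63 and -0.70 over the 22.

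Gadd45b differed by about the same amount in both sets, by -0.23 within numbers 1 to 3 (exact permutation p = 0.4, n = 3 per group) and by -0.24 within numbers 4 to 11 (exact permutation p = 0.0418, two-sided, n = 8 per group, not adjusted). Its dimmer probe gave 0.02 and -0.22. Fosb had -0.83 and -0.16 in the 2 sets, Junb 0.26 and -0.28, Egr1 0.07 and -0.01, Jund -0.07 and 0.04, and Jun -0.06 in both. In numbers 4 to 11 every other probe of the 11 had an exact permutation p of at least 0.203. Without SCR replicates 1 to 3, a choice made after the values were seen, the difference over the remaining mice was 0.0013 for Fos, 0.27 for Fosb and 0.08 for Atf3. That of Gadd45b was -0.18 and no longer passed (unadjusted p = 0.108 from limma).

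Across mice some members varied together, and so did many other genes. Correlations were taken on deviations from the group means with the brightest probe of each gene, for 45 pairs, with permutation p from 100000 resamples within groups and Benjamini-Hochberg adjustment over the pairs. Over the 22 mice 11 pairs had an adjusted p under 0.05, all of them positive, and the smallest r among them was 0.54. Of the 28 pairs among the 8 members with a mean of at least 6, 35.7% reached 0.54 in size, against 46.0% of all pairs of the 8828 genes with such a mean. A single axis, the first principal component of all probes, took up 63.6% of the variance between arrays.

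Fos with Fosb had a Pearson r of 0.78 (permutation p = 6.00e-05, adjusted p = 0.00135) and a Spearman rho of 0.78 (permutation p = 1.20e-04). Without SCR replicates 1 and 4, the mice farthest from the median of Fos, r was 0.71, and within the 16 mice of numbers 4 to 11 it was 0.82. Junb with Egr1 also had 0.78 (permutation p = 6.00e-05, adjusted p = 0.00135), with a rho of 0.80 (permutation p = 4.00e-05). This was 0.78 again without ANTI-210 replicates 3 and 11, and 0.82 within numbers 4 to 11. Fos with Atf3 had 0.66 (permutation p = 0.00363, adjusted p = 0.0408), rho 0.65 (permutation p = 0.00255), 0.79 without SCR replicates 1 and 4 and 0.60 within numbers 4 to 11. When the 2 mice farthest from the median were left out of each relation over 22 mice, 4 pairs had an adjusted p under 0.05.

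Within numbers 4 to 11, 23 of the 45 pairs had an adjusted permutation p under 0.05, 1 of them negative, and the smallest r among them was 0.60 in size. Of the 28 pairs of brighter members 60.7% reached that size there, against 47.5% of all gene pairs, and this difference was not tested. Fosb with Egr1 had an r of 0.88 (permutation p = 2.00e-05, rho 0.84), against 0.51 over all 22 mice. Jun with Fosb had 0.79 (permutation p = 9.10e-04, rho 0.79) against 0.06, and fell to 0.54 without ANTI-210 replicate 11 and SCR replicate 5. Jun with Fos had 0.79 (permutation p = 9.50e-04, rho 0.69) against 0.33. Gadd45b had r between -0.13 and 0.23 with the 8 members other than Btg2, and -0.62 with the dim probe of Btg2.

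**Figure D3:**
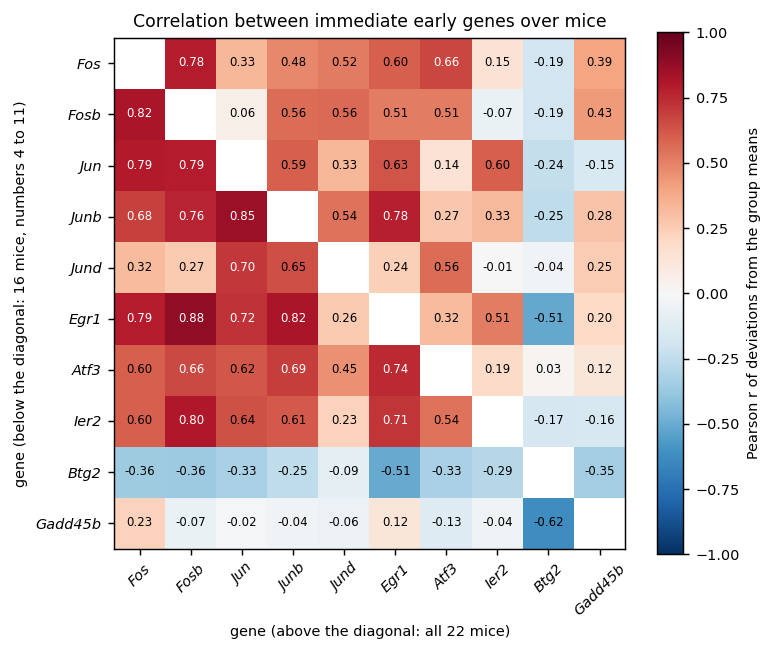
Pearson r between the 10 immediate early genes over mice, on deviations from the group means of log2 intensity; above the diagonal are all 22 mice and below it the 16 mice of replicate numbers 4 to 11. Below the diagonal Fosb and Egr1 reach 0.88 and Jun and Junb 0.85, while the row of Gadd45b stays between -0.13 and 0.23 apart from -0.62 with Btg2.

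Marker levels of muscle fibres and of infiltrating cells differed between mice, and several members were correlated with them. Over 14 markers of mature fibres the mean log2 intensity ran from 13.46 to 14.19 in SCR mice and from 13.46 to 14.28 in ANTI-210 mice. Of these markers 12, such as the creatine kinase Ckm at 14.96, lay near the top of the array's range, while the calcium store protein Casq1 lay at 10.94 and the slow myosin Myh7 at 6.95. Myh7 (SD 1.49 in SCR and 1.87 in ANTI-210) and Casq1 (0.79 and 0.55) had the largest spread of the 14, against 0.12 and 0.20 for Ckm. The mean over 12 macrophage markers, such as Csf1r and C1qb, ran from 7.93 to 10.44 in SCR mice and from 8.53 to 10.29 in ANTI-210 mice. Both lists overlapped almost fully between treatments.

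Junb correlated with the fibre markers at -0.79 (permutation p = 1.10e-04, adjusted p = 0.00293 over 80 relations of 10 members with 8 marker lists), with a rho of -0.72 (permutation p = 4.20e-04). A correlation of this size with the fibre markers, in either direction, was found for 45.6% of the 8828 genes. Jun had -0.73 (adjusted permutation p = 0.0072), matched by 53.3% of genes, and Egr1 -0.67 (adjusted permutation p = 0.0096), matched by 59.5%. The probe of Ier2, near the floor, had -0.61 (adjusted permutation p = 0.0377), matched by 65.6%. Fos and Fosb had -0.29 and -0.23, which did not pass (adjusted permutation p = 0.393 and 0.508), although the rho of Fosb was -0.53 (permutation p = 0.0152). Without Myh7 and Casq1, a choice made after the values were seen, r was -0.77 for Junb (permutation p = 3.00e-04, rho -0.59), -0.70 for Jun and -0.62 for Egr1.

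With the regenerating muscle markers 4 members passed, all positive: Junb at 0.76 (adjusted permutation p = 0.0028), Egr1 at 0.66, Jun at 0.65 and the dim Ier2 probe at 0.57. In the same order, 49.0%, 59.6%, 61.0% and 68.1% of genes had a correlation of that size with these markers. With the macrophage markers Junb had 0.76 (permutation p = 7.00e-05, adjusted p = 0.0028), rho 0.66 (permutation p = 0.00169), and Egr1 0.67 (adjusted permutation p = 0.0117). Correlations of that size with the macrophage markers were found for 47.7% and 58.4% of genes. Egr1 with the endothelial markers had -0.65 (permutation p = 0.00165, adjusted p = 0.0132), with a rho of -0.59 (permutation p = 0.00718), and 1.10% of genes had a correlation of that size with these markers. It was -0.68 within numbers 4 to 11, a size matched by 37.2% of genes there. Without the 2 mice farthest from the median of Egr1 it was -0.49 and no longer passed (adjusted permutation p = 0.175).

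In numbers 4 to 11 r with the fibre markers was -0.94 for Junb (permutation p = 1.00e-05, the smallest the resamples can give, rho -0.86), -0.88 for Jun, -0.81 for Fosb, -0.79 for Egr1 and -0.64 for Fos, sizes matched by 15.1%, 35.8%, 49.6%, 53.1% and 68.5% of genes. SCR replicates 6 and 7 and ANTI-210 replicate 11 had the least fibre marker signal, at 13.46, 13.62 and 13.46, and lay apart from the other mice of this set. Among the 13 mice left without them, a choice made after the values were seen, r was -0.74 for Junb (permutation p = 0.00681, rho -0.64), -0.76 for Fosb (permutation p = 0.00346), -0.62 for Jun, -0.56 for Egr1 and -0.40 for Fos. Gadd45b was at 0.68 among these 13 mice (permutation p = 0.0162, adjusted p = 0.0476 over the 10 members), and had 0.17 over the 16. Without Myh7 and Casq1 Gadd45b had -0.08 over the 16 mice. Over the 22 mice it then had -0.20, against 0.04 with all 14 markers. Of the 80 relations 14 passed over the 22 mice, 9 positive and 5 negative, 31 passed in numbers 4 to 11, and none passed over 22 mice once the 2 mice farthest from the median were left out of each. For Junb and the fibre markers r was then -0.72 (permutation p = 0.00221, adjusted p = 0.0658). The part of fibres or infiltrating cells in the level of any member was not tested.

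**Figure D4:**
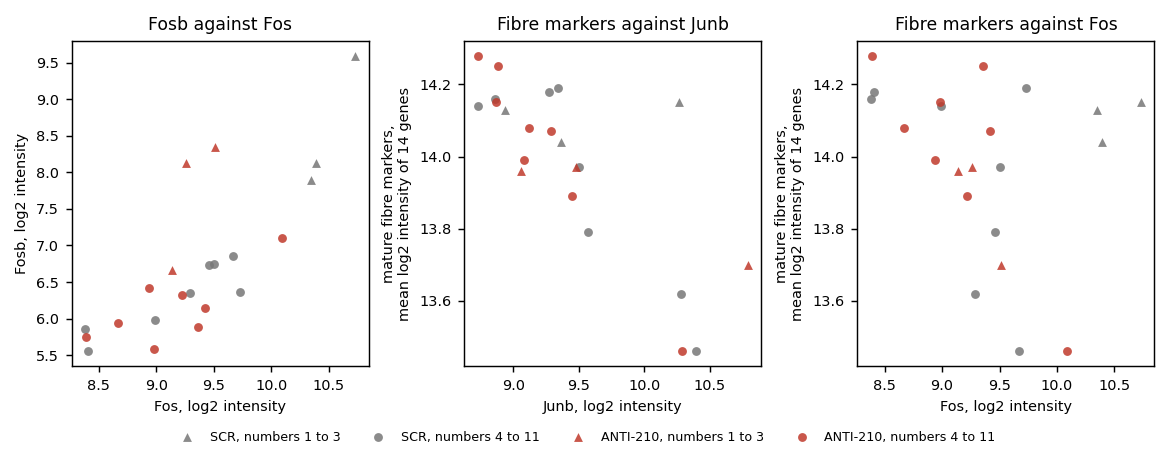
Fosb against Fos, and the mean log2 intensity of 14 mature fibre markers against Junb and against Fos, one point per mouse; SCR is grey, ANTI-210 red, triangles stand for replicate numbers 1 to 3 and circles for numbers 4 to 11. In the left panel the 3 grey triangles have the highest Fos, and in the middle panel the 3 circles at 13.46 to 13.62 are SCR replicates 6 and 7 and ANTI-210 replicate 11.

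The genes most like Fos over mice were sought among 8827 others with a mean of at least 6, by Pearson r over the 22 mice after removing group means. The 5 with the highest r were Mthfs (0.79), which encodes a folate enzyme, Fosb (0.78), Arl2bp (0.72), Ola1 (0.72) and Rpa3 (0.71), a subunit of the single-strand DNA binding protein RPA. Their rho values were 0.72, 0.78, 0.62, 0.71 and 0.62, and their permutation p lay between 5.00e-05 and 6.10e-04. After adjustment over the 8827 genes these were 0.194 to 0.317. Without SCR replicates 1 and 4 r was 0.73, 0.71, 0.57, 0.65 and 0.73 in the same order. By this measure Atf3 was number 14, Egr1 number 40, Jund number 77, Junb number 132, Gadd45b number 345 and Jun number 640.

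Genes around the members in the pathway did not pass the test. Of 12 other AP-1 and ATF subunits measured of 14 listed, 0 had an unadjusted p under 0.05 from limma, with a median difference of -0.01 and a range from -0.13 to 0.26. Fosl2, whose brightest probe averaged 9.49 against 9.36 for Fos, differed by 0.23 (standard error 0.21). Its dimmer probes, near the floor, gave -0.05 and -0.01. Atf2 differed by -0.07 (standard error 0.04). Batf2 (0.26) and Maff (-0.13) lay near the floor. Of 40 other immediate early genes 0 passed, and their median was 0.06. The phosphatase Dusp6, which switches off ERK, was at 0.18 (standard error 0.09, unadjusted p = 0.0628), its dimmest probe, near the floor, at 0.19 (unadjusted p = 0.00814 from limma), the phosphatase Dusp5 at 0.25, the kinase Plk3 at 0.22 and the receptor Nr4a3, near the floor, at -0.09.

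Upstream, 0 of 20 kinases and factors measured of 25 listed passed, with a median of -0.01. The kinase Map2k2 was at -0.10 (standard error 0.08), the CREB relative Crem at 0.17 (standard error 0.15), and the SRF cofactors Mrtfb and Mrtfa, near the floor, at 0.10 and -0.08. Of 18 target genes of AP-1 and Egr1 measured of 20 listed 0 passed, with a median of 0.06. Plaur, the urokinase receptor, was at 0.16 (standard error 0.25), the Egr1 corepressor Nab2 at 0.10 (standard error 0.17), the heme oxygenase Hmox1 at 0.20 (standard error 0.37) and the cytokine Il6, near the floor, at 0.07. These lists had 7 of 12, 12 of 40, 11 of 20 and 4 of 18 genes below 0. In the same order their medians were 0.02, 0.24, -0.14 and 0.47 within replicate numbers 1 to 3. Within numbers 4 to 11 they were -0.02, -0.01, 0.05 and -0.07.

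Markers of the cell types a muscle can hold were compared in the same way. None of the mature fibre (14), regenerating muscle (6), macrophage (12), neutrophil (5), smooth muscle (5) or fibroblast (7) markers passed. Of 10 endothelial markers 5 were higher with ANTI-210 at an unadjusted p under 0.05 and 0 lower, against 3.41% of all probes in either direction, and the adjusted p of each was 1 from limma. Among them were Emcn at 0.21, Cdh5 at 0.25, Robo4 at 0.20 and Esam at 0.17, and the 10 had a median difference of 0.25 in numbers 1 to 3 and 0.08 in numbers 4 to 11. These 4 genes, in the same order, had 0.50, 0.55, 0.59 and 0.56 in numbers 1 to 3. In numbers 4 to 11 they had 0.10, 0.14, 0.06 and 0.02. The other gene of the 5 went the other way, with 0.09 and 0.22. Of the further probes of these genes, that of Cdh5 gave 0.17 and the 3 of Robo4, near the floor, -0.03 to 0.07. The endothelial markers averaged 9.42 to 9.89 in SCR and 9.49 to 10.05 in ANTI-210 mice. Of 5 T cell markers, all near the floor, Cd3d alone was higher, at 0.37 (standard error 0.15, adjusted p = 1 from limma). Gadd45b correlated with the endothelial markers at -0.33 (rho -0.44), which did not pass (adjusted permutation p = 0.285). The part of these cells in the Gadd45b difference was not tested.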

How the data were processed

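RNA of 22 muscles, 200 ng each, was hybridized to Illumina MouseWG-6 v2 arrays, 1 mouse per array. Per the study's methods, the authors summarised beads in GenomeStudio, quantile normalized the intensities and filtered probes for expression and quality with beadarray, with versions and thresholds not stated. The deposited log2 values (base taken from their range, 4.35 to 15.4) cover 38563 probes with 0 further columns. The platform annotation gives 32093 probes 1 symbol, 16 several and 6454 none. Groups and replicate numbers come from the sample titles. No source used here states a pairing of mice with the same number.

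The members, gene lists and number sets were chosen with earlier results of these data known. Differences were tested over all probes with limma 3.58.1 in R 4.3.3 (lmFit, eBayes, two-sided, unadjusted p under 0.05 as in the methods), tested on simulated data beforehand. The brightest probe stood for a gene. Named genes are all members, up to 4 genes of each list with the smallest p, and the 5 most like Fos. Permutation tests, correlations and figures used Python 3.11.15, scipy 1.17.1 and matplotlib 3.10.9. Alternatives were normalization (quantile again, cyclic loess, median centring), eBayes settings, array weights, a filter on dim probes, mean of probes, replicate block, number sets, a principal component, the methods' t-test and leaving out each mouse. The number of arrays limits the precision. Of the promoters, 8 members had one in the table used.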

Additional observations from a re-analysis of the deposited data

Results flagged for a closer look

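The treatment difference of Fos was -1.19 within replicate numbers 1 to 3 and -0.04 within numbers 4 to 11, and the interaction term between them was -1.14 (unadjusted p = 0.0168, adjusted p = 0.442 from limma). For Atf3 the differences were -1.11 and 0.06, with an interaction of -1.17 (unadjusted p = 0.0372, adjusted p = 0.448 from limma). These were picked out because the unadjusted p of the interaction was under 0.05, as for 11.0% of all probes, and neither passed after adjustment. Both rest on 3 mice per treatment in numbers 1 to 3, and the sets are not groups of the study.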

How the results depend on the processing

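Gadd45b was the 1 probe of 11 past the treatment test, and the count was also 1 under every normalization, eBayes with trend and robust, array weights, the filter on dim probes, either covariate (number set or first principal component), numbers 4 to 11 alone, the methods' t-test and each mouse left out (1 to 1; Gadd45b -0.29 to -0.20). Of all probes 9.41% passed with array weights and 5.96% with that component as covariate, so 1 of 11 is close to those shares. The replicate block also gave 1, with Gadd45b at -0.24 (unadjusted p = 0.0112 from limma). No source used here states that mice of the same number are paired, and correlations between them cannot settle it. Of the same-numbered pairs 4 of 11 correlated above 0.1 (range -0.66 to 0.64), and 2 of 22 mice correlated best with their own number. The count was 0 with probes averaged per gene, 2 (Fos, Atf3) within numbers 1 to 3, where 29.3% of all probes passed, and 0 without SCR numbers 1 to 3, chosen after the values were seen. Differences changed sign within numbers 1 to 3 for Junb (0.26), Jund (-0.07), Ier2 (0.01) and the dimmer Gadd45b probe (0.02), within numbers 4 to 11 for Egr1 (-0.01), Atf3 (0.06) and Btg2 (0.01), with the first principal component for Jund (-0.02) and Egr1 (-0.09), and without SCR numbers 1 to 3 for Fos (0.0013), Fosb (0.27) and Atf3 (0.08). With 1 mouse left out they ran from -0.05 to 0.07 for Jund, -0.11 to 0.11 for Egr1 and -0.02 to 0.0044 for Btg2.

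The count of interactions, 2, was 1 to 2 with 1 mouse left out and 2 under its other settings. Interactions of Jun (-0.10 to 0.12), Egr1 (-0.23 to 0.53) and Gadd45b (-0.18 to 0.17) changed sign there, none of them past the test. The count of correlated pairs, 11 over 22 mice, was 4 without the farthest 2 mice of each and 23 within numbers 4 to 11. These are not all the same pairs: Fosb with Atf3, among the 4, was not among the 11 (adjusted permutation p = 0.073). The count of marker relations that passed, 14 over 22 mice, was 0 and 31 under these 2 settings. The cause was not tested. Dim probes limit Ier2, Btg2 and the dimmer Gadd45b probe.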
